A study of Mus musculus with 2 samples.

Results

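The 10 genes described here encode the enzymes and cofactors that write DNA methylation and those that take it off: Dnmt1, Dnmt3a, Dnmt3b, Dnmt3l, Uhrf1, Uhrf2, Tet1, Tet2, Tet3 and Tdg. They were chosen by name among 34650 gene names on the array, and every non-control probe carrying one of these names was kept, which gave 23 of 55681 probes. RNA was measured on 2 one-colour microarrays. The starting cells of both were E14Tg2A, an embryonic stem (ES) cell line of mouse strain 129/Ola. For the EpiSC array, epiblast stem cells had been induced directly from ES cells with FGF2 at 12 ng/mL and Activin A at 20 ng/mL in a chemically defined medium with N2 and B27. For the ELA-EpiSC array, the same factors had been given to cells of epiblast-like aggregates (ELA), the floating clusters formed by ES cells once serum and LIF are withdrawn. Both groups therefore shared the line, the factors and the medium, and they differed in the aggregate step. Each array carried RNA pooled from 3 experiments, so there was 1 value per group and no replicate check, and no test between the groups was possible. Groups follow the sample titles. The source field names an Argonaute immunoprecipitate for the EpiSC sample and total RNA for the ELA-EpiSC sample, whereas the molecule field gives total RNA for both, and this conflict was not resolved.

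In mammalian DNA, methyl groups are placed on cytosines of CpG dinucleotides. Dnmt3a and Dnmt3b methylate previously unmethylated sites, and Dnmt3l, which has no catalytic activity of its own, stimulates both. After replication, Uhrf1 recognises the half-methylated CpG and brings in Dnmt1, which copies the mark onto the new strand. Tet1, Tet2 and Tet3 oxidise methylcytosine in steps, and Tdg cuts out the most oxidised forms so that base excision repair can restore a plain cytosine. Methylation is low in the naive ground state and rises as pluripotent cells are primed, and Dnmt3b is widely used as a marker of the primed epiblast.

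Every difference below is log2 ELA-EpiSC minus EpiSC of normalized signal, so a positive value means a higher signal on the ELA-EpiSC array. The only error available was that of replicate spots: over 222 detected probes printed 10 times, the SD of this difference between spots was 0.10 (root mean square), 0.11 for the 78 probes with a mean log2 below 9 and 0.10 for the 144 brighter ones. Variation of labelling or of culture is not part of it. Each of the 23 probes was printed once, all 23 were well above background on both arrays, and no spot was saturated on either. Median intensity over all spots was 71.7 units for EpiSC and 79.1 units for ELA-EpiSC, and median local background was 26 and 25 units. Quantile normalization sets both arrays to 1 distribution, and a shift shared by all genes is removed by it. Setting the 8 detected spike-in probes equal instead, all 8 of which read lower on the ELA-EpiSC array by 0.26 to 0.86, adds 0.54 to every difference. Where this changes the direction of a named gene or probe, the value on that scale is given too.

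The probes of Dnmt3b, which had the largest difference on the quantile normalized scale, lay within a short stretch of chromosome 2 in mm9, the build of the array files, and did not overlap. They are shown, as the central 30 bases of each 60-base probe, because all 3 were lower in ELA-EpiSC. Probe 1 lay at chr2:153512098-153512157, probe 2 at chr2:153512991-153513050 and probe 3 at chr2:153513403-153513462, all on the plus strand. Their exon or UTR was not analysed here.
Dnmt3b probe 1: aggaccactttgcctgtgaatagttctacc
Dnmt3b probe 2: cccctagttcctcatgagaagctaggacca
Dnmt3b probe 3: atgcccagagtttacctttctggttgatta

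Among the de novo methyltransferases, Dnmt3b was lower in ELA-EpiSC while Dnmt3a and Dnmt3l were higher. Dnmt3b probe 3, the brightest of the gene, read 17.07 in EpiSC and 16.24 in ELA-EpiSC (log2), giving a difference of -0.84, or 1.78-fold lower. The spot SD set beside it was 0.10, from the 50 replicated probes nearest in signal. The same value served all 3 Dnmt3b probes, so it was not measured at the signal of each. Probe 1 read 15.63 and 14.77, a difference of -0.87. Probe 2 read 15.26 and 14.15, a difference of -1.11. The 3 probes thus moved the same way, each by 8.59 to 11.5 times the spot SD, and their range was -1.11 to -0.84. Among 16649 genes whose mean log2 reached 7.5, 6.02% had a lower difference than the brightest Dnmt3b probe. With the spike-in probes set equal, using the mean of the 8, the difference of that probe was -0.30 and the direction was kept. Single spike-in probes were lower by 0.26 to 0.86, and the largest of these exceeds the 0.84 of this probe.

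Dnmt3a, the other catalytic de novo enzyme, had 1 probe at chr12:3914320-3914379 on the plus strand. It read 10.92 in EpiSC and 11.41 in ELA-EpiSC, giving a difference of 0.49, or 1.40-fold. Dnmt3l, their stimulating partner, also had 1 probe, at chr10:77526112-77526171 on the plus strand. It read 9.29 in EpiSC and 9.76 in ELA-EpiSC, giving a difference of 0.47, or 1.38-fold. Both were higher in ELA-EpiSC by about the same amount, 5.14 times the spot SD for Dnmt3a and 4.61 times for Dnmt3l, yet each rests on a single spot per array. With the spike-in probes set equal these differences became 1.03 and 1.00.

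A contrast between genes on the same pair of arrays is free of any constant added to all differences. The difference of Dnmt3b was 1.33 below that of Dnmt3a (-1.33, spot SD of the contrast 0.14), and under the 14 alternative ways of obtaining the gene values this contrast lay between -1.78 and -1.31. Against Dnmt3l it was -1.30, with a range of -1.74 to -1.29. Not every alternative could change such a contrast. Setting the spike-in probes equal adds a constant that cancels, and the detection rules left these gene values unchanged. Centring the same signal on its median or on a higher percentile differs by a constant only, so both gave the same contrast. In the settings that could change it, the shift of Dnmt3b relative to Dnmt3a and Dnmt3l was several times the spot noise. Neither contrast has a culture replicate.

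**Figure D1:**
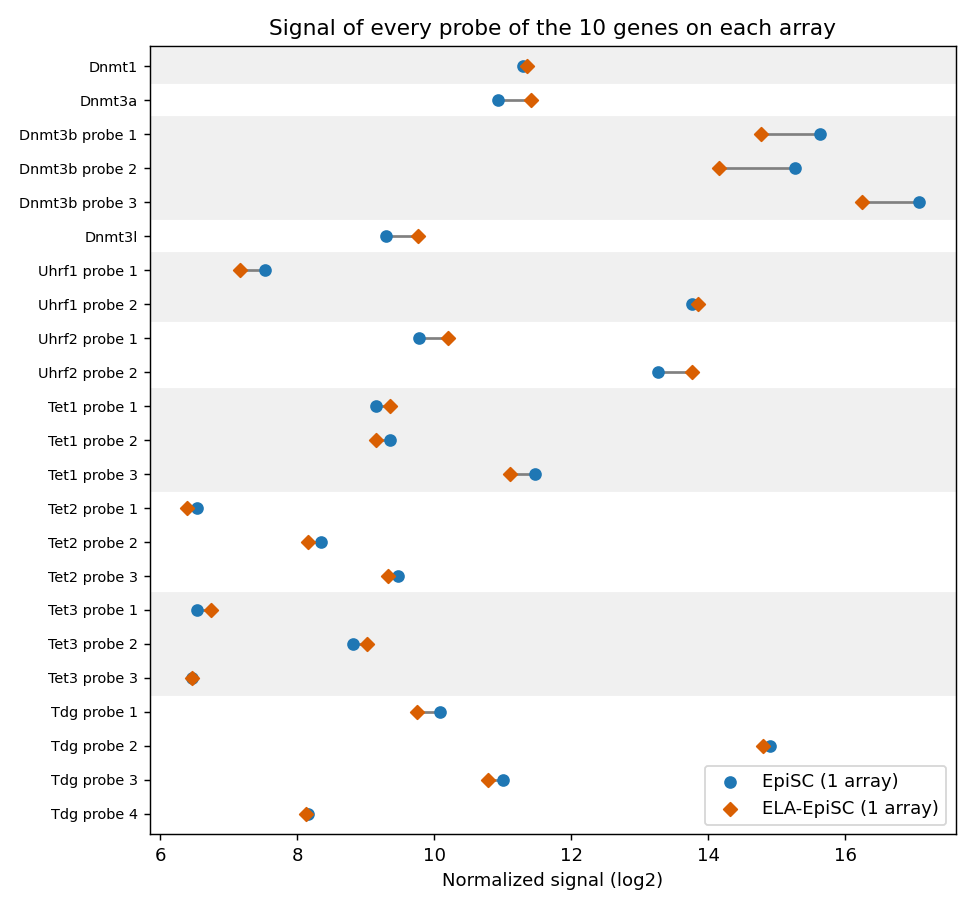
Normalized signal (log2, horizontal axis) of each of the 23 probes of the 10 genes on the EpiSC array (circles) and the ELA-EpiSC array (diamonds), 1 array per group, with probes of a gene numbered 5′ to 3′ by position. The 3 Dnmt3b probes show the widest separation, each lower in ELA-EpiSC, and both Uhrf2 probes are higher in ELA-EpiSC. Signals of different probes are not comparable with each other.

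For maintenance methylation, the signals of Dnmt1 and of the brightest Uhrf1 probe differed between the arrays by less than the spot SD, and Uhrf2 was higher in ELA-EpiSC. Dnmt1 had 1 probe, which spans 369 bases of mm9 (chr9:20711973-20712341, minus strand) although it is 60 bases long, so its match is interrupted. It read 11.30 in EpiSC and 11.35 in ELA-EpiSC, giving a difference of 0.06. Uhrf1 probe 2 (chr17:56462770-56462829, plus strand) read 13.76 and 13.84, a difference of 0.08. Uhrf1 probe 1, which spans 654 bases upstream of it (chr17:56451668-56452321), was dim and read 7.53 and 7.16, a difference of -0.37 that became 0.17 with the spike-in probes set equal. The 2 Uhrf1 probes therefore moved in opposite directions, the dim one by 3.25 times its spot SD. The small positive difference of the bright probe did not keep its sign. It was -0.01 and -0.08 when arrays were centred on the 75th percentile of the same signal and of the processed signal, and 0.62 with the spike-in probes set equal. The gene value taken as the mean of both probes, the dim one included, was -0.14.

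Uhrf2, the paralog of Uhrf1, known as a reader of hydroxymethylcytosine, was higher on both of its probes, by an amount that did not differ from those of Dnmt3a and Dnmt3l beyond the spot SD. Its probe 2 (chr19:30167958-30168017, plus strand) read 13.26 in EpiSC and 13.76 in ELA-EpiSC, giving a difference of 0.50, or 1.42-fold. Its probe 1 lay well upstream (chr19:30130768-30130827) and read 9.77 and 10.20, a difference of 0.43. Probes 37.2 kb apart thus gave differences within 0.08 of each other. Relative to Uhrf1 the Uhrf2 difference was higher by 0.42 (spot SD of the contrast 0.14), with a range of 0.42 to 0.61 over the alternatives.

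**Figure D2:**
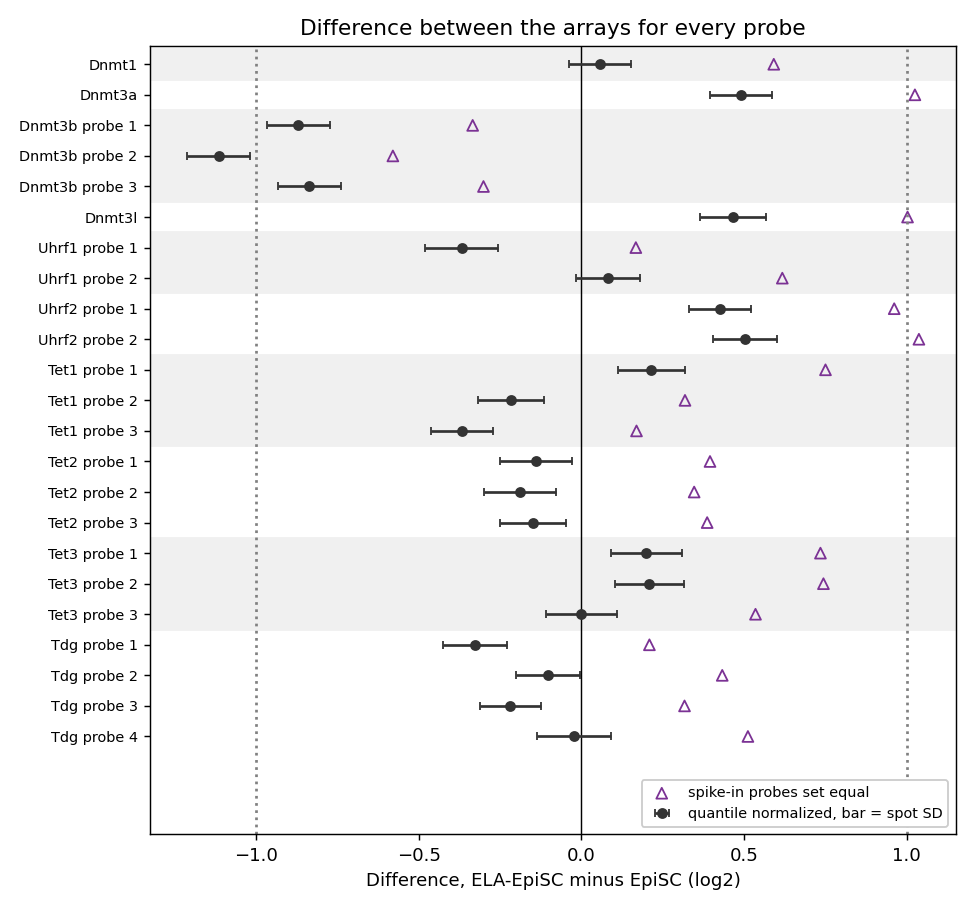
Difference between the arrays (log2 ELA-EpiSC minus EpiSC, horizontal axis) for each of the 23 probes. Filled circles are quantile normalized values with bars of 1 spot SD, taken from the replicated probes nearest in signal, which for the brightest probes are the same set. Open triangles are the same values with the spike-in probes set equal, and dotted lines mark a difference of 1. Dnmt3b probe 2 is the only point beyond -1, and the 3 Dnmt3b probes are the only ones below 0 on both scales.

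The TET dioxygenases were spread around 0. Tet1 probe 3 (chr10:62274448-62274507, minus strand), the brightest, read 11.47 in EpiSC and 11.11 in ELA-EpiSC, giving a difference of -0.37. Probe 2 (chr10:62276042-62276101) read 9.36 and 9.14, a difference of -0.22. Probe 1, the most 5′ (chr10:62301856-62301915), read 9.14 and 9.36, a difference of 0.22 in the other direction. The Tet1 probes disagreed by more than the spot SD, so no single direction describes this gene, and with the spike-in probes set equal all 3 were positive, at 0.75, 0.32 and 0.17 from probe 1 to probe 3. The local background under probe 1 was 40 units in EpiSC and 26 in ELA-EpiSC.

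Tet2 read slightly lower in ELA-EpiSC on all of its 3 probes, by -0.15 on the brightest (probe 3, chr3:133126751-133126810, minus strand, 9.47 and 9.32), by -0.19 on probe 2 (8.35 and 8.16) and by -0.14 on the dim probe 1 (6.53 and 6.39). These differences are 1.27 to 1.68 times the spot SD. The direction of the gene was not kept by every scaling: it was 0.05 when arrays were centred on their medians, and with the spike-in probes set equal probes 1, 2 and 3 were at 0.40, 0.35 and 0.39. Tet3 read slightly higher in ELA-EpiSC, by 0.21 on its brightest probe (probe 2, chr6:83319720-83319779, minus strand, 8.81 and 9.02) and by 0.20 on the dim probe 1 (6.54 and 6.74). Tet3 probe 3, also dim, read 6.47 on both arrays. By their brightest probes, the Tet3 difference was 0.57 above that of Tet1 and 0.36 above that of Tet2 (spot SD of each contrast 0.14 and 0.15). The contrast with Tet1 ranged from 0.26 to 0.65 over the alternatives. It depends on the probe, since Tet1 probe 1, at 0.22, was level with the brightest Tet3 probe, at 0.21.

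Tdg, the glycosylase that removes oxidised methylcytosine, had 4 probes on chromosome 10, all of them at or below 0. Probe 2 was the brightest and read 14.90 in EpiSC and 14.79 in ELA-EpiSC, giving a difference of -0.10. Probe 1 (chr10:82110701-82110760) read 10.08 and 9.75, a difference of -0.33. Probe 3 read 11.00 and 10.78, a difference of -0.22. Probe 4 (chr10:82113115-82113174) read 8.15 and 8.13, a difference of -0.02. The range from -0.33 to -0.02 exceeds the spot SD, and with the spike-in probes set equal all 4 were positive, at 0.21, 0.43, 0.32 and 0.51 from probe 1 to probe 4. Probes 2 and 3 overlap in the genome (chr10:82112969-82113029 and chr10:82112994-82113053, plus strand) and share a run of 29 bases, so they are not independent readings of the transcript. Their ends are shown because they part at that run while their raw signals were far apart, 29990 against 1824 units on the EpiSC array. The last bases of the shared run are in lower case and the bases that follow it in capitals.
Tdg probe 2: tctcattaaataatactgagatttAAAAAA
Tdg probe 3: tcattaaataatactgagatttTAAACATG

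Probe 2 ends in a run of A, and probe 3 runs on into other sequence. How this end contributes to the signal of probe 2 was not tested. None of the 23 probes shared 20 bases in a row with a probe of another gene name. Pseudogenes named after several of these genes are listed in the RefSeq table of GRCm38.p6 (Tdg-ps, Tdg-ps2, Dnmt3a-ps1, Dnmt3b-ps1, Dnmt3l-ps1), and the matches of the probes to them, and how alike they are, were not analysed here, so the signals of Tdg, Dnmt3a, Dnmt3b and Dnmt3l may include them.

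Over the 10 genes together, 6 were higher in ELA-EpiSC and 4 lower by their brightest probe, against 50.2% of all 16649 genes higher, and with the spike-in probes set equal 9 were higher, against 87.6% of all genes on that scale. By size, 8 of 10 differed by more than the spot SD of 0.10, against 79.8% of all genes, and 0 of 10 passed an absolute difference of 1, against 4.54% of all genes higher and 4.46% lower. With the spike-in probes set equal, 3 of 10 passed 1 upward (Dnmt3a, Dnmt3l and Uhrf2) and 0 downward, against 14.8% and 1.82% of all genes. The median difference was 0.07, beside 0.00 for all genes. As counts, the 10 genes were thus close to the background of the array. Dnmt3b was the member farthest from 0 on the quantile normalized scale, though not with the spike-in probes set equal, and 12.3% of all genes had a larger absolute difference. At a lower threshold of 1.5-fold it was the 1 member of 10 passing, against 10.9% of all genes lower by as much.

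**Figure D3:**
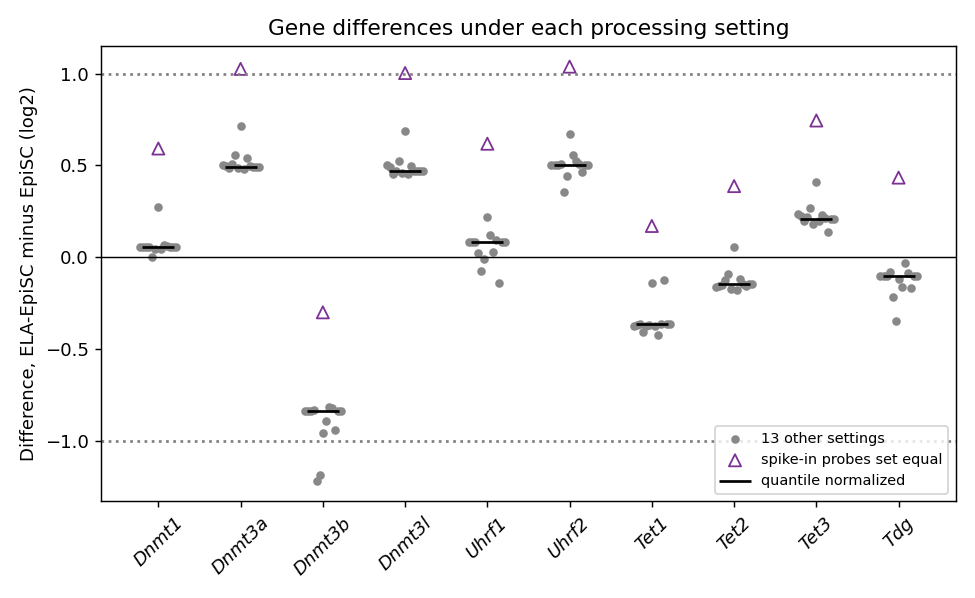
Difference (log2 ELA-EpiSC minus EpiSC, vertical axis) of each gene under the quantile normalized values (black bars), with the spike-in probes set equal (open triangles) and under 13 other settings (grey points). Dnmt3b stays below 0 in every setting, from -1.22 to -0.30, while Dnmt3a, Dnmt3l, Uhrf2 and Tet3 stay above 0, and Uhrf1, Tet1, Tet2 and Tdg have points on both sides.

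The promoters of Dnmt3b, which was lower, and of Uhrf2, which was higher on 2 probes, are shown to place them by CpG content, the substrate of these enzymes. The sequences are those of RefSeq on GRCm38.p6, 250 bases before the annotated start, with each CG in capitals. The Dnmt3b promoter (chr2:153649199-153649448, plus strand) holds 21 CG in these 250 bases and the Uhrf2 promoter (chr19:30030263-30030512, plus strand) holds 23.
Dnmt3b promoter: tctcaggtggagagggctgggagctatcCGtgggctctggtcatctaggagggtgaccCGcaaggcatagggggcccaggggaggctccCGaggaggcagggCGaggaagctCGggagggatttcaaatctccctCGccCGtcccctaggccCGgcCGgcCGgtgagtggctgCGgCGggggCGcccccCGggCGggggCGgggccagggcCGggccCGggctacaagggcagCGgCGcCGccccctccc
Uhrf2 promoter: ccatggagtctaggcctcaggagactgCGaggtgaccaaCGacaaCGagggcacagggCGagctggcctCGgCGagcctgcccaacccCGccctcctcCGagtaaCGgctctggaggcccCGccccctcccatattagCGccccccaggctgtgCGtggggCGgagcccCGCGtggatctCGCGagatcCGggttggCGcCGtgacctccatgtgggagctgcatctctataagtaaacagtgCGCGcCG

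Counted over 300 bases, from 250 before to 50 after the start, Dnmt3b had 30 CG and Uhrf2 had 28, beside a median of 7 over 32851 annotated promoter windows. All 10 genes were matched, with 17 annotated starts, and 13 of the 17 windows lay above that median. The Tet2 window had 57, which 0.152% of all windows reach, and the 2 upstream Dnmt3a windows had 46 and 47 and overlap each other. The 3 Dnmt3l windows had 6, 4 and 3 and all lay below the median. The GC box GGGCGG, searched on both strands, occurred 4 times in the Dnmt3b window and 3 times in the Uhrf2 window, and 13 of the 17 windows held it, against 35.7% of all windows. A promoter rich in CG was thus present both in a gene that was lower and in one that was higher in ELA-EpiSC. Methylation itself was not measured here.

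A further 7 lists place the 10 genes within their pathway. For comparison with their counts, 50.2% of all genes were higher in ELA-EpiSC, 4.54% passed 1 upward and 4.46% downward. Apart from the maintenance partners and the germline genes, the median of each list changed sign under at least 1 of the 14 settings, as did that of the 10 genes. The partners of maintenance and recruitment, which open chromatin for Dnmt1 or bring methylation to imprints and repeats, had 13 of 14 genes at or above a mean log2 of 7.5, of which 9 were higher and 0 passed 1 in either direction, with a median of 0.14. The farthest were Smchd1, a chromosomal protein needed for methylation of the inactive X, at 0.44 (14.42 and 14.86) and 0.14 on its dimmer probe, and Ehmt2, the histone methyltransferase G9a, at -0.48 (14.93 and 14.44). For Ehmt2 the sign turned with the spike-in probes set equal, to 0.05. Of the 8 methyl-CpG readers 5 were higher and 0 passed 1, with a median of 0.04. Zbtb38 was the farthest, at 0.84 on its brightest probe (7.97 and 8.81) and 0.76 on another. Its dimmest probes, detected on at most 1 array, were at 0.01 and -0.05, the latter 0.48 with the spike-in probes set equal.

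Base excision repair genes and TET partners held the largest differences of these lists: 10 of 19 were higher, 3 passed 1 upward and 1 downward, and the median was 0.08. Gadd45b, a stress-inducible protein linked to demethylation, read 10.64 in EpiSC and 13.39 in ELA-EpiSC, giving a difference of 2.75. Gadd45a, of the same family, read 10.02 and 12.10, a difference of 2.08. Gadd45g, named here to complete the family, went the other way. It read 12.47 and 11.97, a difference of -0.50, or 0.04 with the spike-in probes set equal. The cytidine deaminase Apobec1 read 8.25 and 9.40, a difference of 1.16, and Apobec2 read 8.65 and 7.56, a difference of -1.09. The glycosylases and the ligase and polymerase steps of the same list lay between -0.31 and 0.24. Each of the 4 genes past 1 had 1 probe.

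Of 16 genes of methyl donor and 2-oxoglutarate metabolism, 9 were higher, 1 passed 1 upward and 0 downward, with a median of 0.03. Shmt2, the mitochondrial serine hydroxymethyltransferase that feeds the one-carbon pool, was at 1.10 (12.90 and 14.01). Mat2a, which makes the methyl donor S-adenosylmethionine, was the farthest below 0, at -0.81 on its brightest probe (15.01 and 14.20) and -1.17 on its other probe. The listed transcriptional regulators, whose action on the 10 genes was not analysed here, had 6 of 8 members at that level. Of these 4 were higher and 0 past 1, with a median of 0.10. Mga was at 0.33 (9.87 and 10.20) and Nanog at 0.32 (13.41 and 13.73), with a dimmer Nanog probe at -0.31, or 0.22 with the spike-in probes set equal. Prdm14, a repressor of Dnmt3b in naive cells, was detected on neither array.

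The germline genes, listed as known targets of silencing by promoter methylation, had the lowest median of these 7 lists. They were not all silent on these arrays. Of 20 genes 12 were detected and 5 reached a mean log2 of 7.5, and those 5 were all lower in ELA-EpiSC, or 3 of 5 with the spike-in probes set equal, with 1 past 1 and a median of -0.71. Among all genes 50.2% were higher in ELA-EpiSC, or 87.6% with the spike-in probes set equal, and 4.46% were past 1 downward. For 1 of the 5, Sohlh2, the difference of -0.08 was below the spot SD, and it was 0.46 with the spike-in probes set equal. Sycp3, a protein of the meiotic chromosome axis, was lower on both of its probes, reading 12.68 and 11.36 on the brighter one, a difference of -1.32, and differing by -1.35 on the other. Tuba3a, a testis tubulin, read 8.56 and 7.77, a difference of -0.78, and -0.60 on its other probe. Among the 7 dimmer genes Rpl10l, named after its value was seen, went the other way, at 1.42. A level minimum met through the brighter array favours genes that differ, so the count of 5 is a description. With the spike-in probes set equal the median was -0.17.

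The DNA replication genes were counted because Dnmt1 and Uhrf1 follow S phase. Of 16 genes 13 were higher, 0 passed 1 upward and 1 downward, with a median of 0.11. The farthest below 0 was Fen1, the flap endonuclease, at -1.06 (14.20 and 13.14), while Lig1, the ligase of the lagging strand, was at 0.95 (14.22 and 15.17). The list's median was -0.03 when arrays were centred on the 75th percentile, so no direction is given for it.

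**Figure D4:**
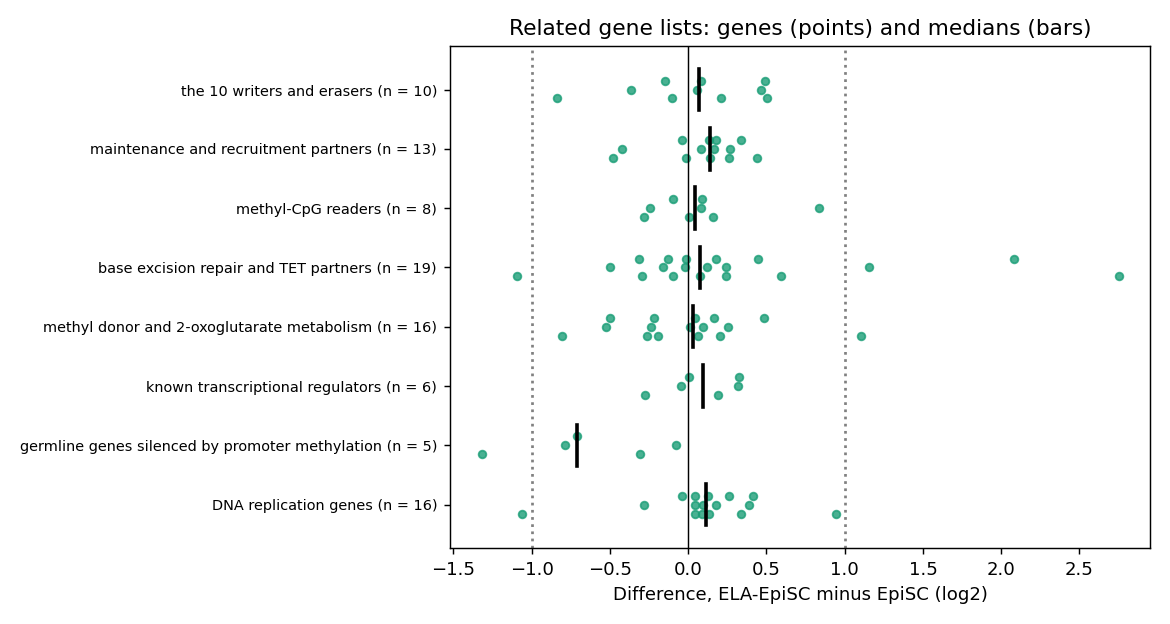
Differences (log2 ELA-EpiSC minus EpiSC, horizontal axis) of the 10 genes and of the 7 related lists, 1 point per gene that reached a mean log2 of 7.5, and a black bar at each median, n in brackets. Dotted lines mark a difference of 1. The medians of 7 of the 8 lists lie between 0.03 and 0.14 and that of the germline genes at -0.71.

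Markers of cell state moved between the arrays beside these differences. All 10 markers of the primed epiblast other than Dnmt3b were detected on both arrays, and their summed signal was 17.71 in EpiSC and 17.94 in ELA-EpiSC (log2). Of them 9 were higher in ELA-EpiSC, against 50.2% of all genes, but Otx2 and Cer1, at 0.005 and 0.01, were below the spot SD. With the spike-in probes set equal 10 were higher, against 87.6% of all genes. Dnmt3b was lower in ELA-EpiSC, while most other markers of that list were higher or near 0. Of 10 naive markers 9 were detected, 4 passed 1 downward and 0 upward, and the sum was 13.25 and 12.16, with Prdm14 below detection. Among all genes 4.54% were past 1 upward and 4.46% downward. Of the 8 naive genes at the level minimum, Esrrb (0.43) and Klf4 (0.16) were higher. With the spike-in probes set equal 4 were higher and 4 lower, and Tfcp2l1 and Fgf4, both at -0.88, no longer passed 1. All 10 visceral endoderm markers were detected on at least 1 array, 4 passed 1 downward and 0 upward, and the sum was 15.94 and 15.08. Of the 8 at the level minimum 0 were higher, or 2 with the spike-in probes set equal. Hnf4a, a defining factor of that tissue, read 12.79 in EpiSC and 7.67 in ELA-EpiSC, while Afp stayed below a mean log2 of 7.5. The primitive streak list had 4 genes past 1 upward and 2 downward, with sums of 14.69 and 15.76. The neural list had 2 in each direction, with sums of 14.80 and 15.93. All these sums are weighted to the brightest probes and give no direction for a list. In the neural list Nes and Nefl were at 2.11 and 2.18, and Rax and Hesx1 at -5.96 and -4.38. There 3 of 8 genes were higher, with a median of -0.19, or 0.34 with the spike-in probes set equal. The part of these cell types in the differences of the 10 genes was not tested, and in bulk RNA a change in the share of a cell type and a change of RNA per cell cannot be told apart.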

How the data were processed

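RNA of 1 EpiSC and 1 ELA-EpiSC pool was measured on Agilent SurePrint G3 mouse arrays. Scanner files deposited by the authors give each spot's linear intensity, not normalized, from Feature Extraction (version 10.7.3.1 per the file headers, 9.1 per the submitters' processing notes). A second deposited file has log2 values per probe, which the authors' methods say were corrected for background and quantile normalized (limma). Its column medians were 6.39 and 6.38, its offset is not given in the sources used here, and it served as an alternative.

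From the mean spot intensity and the median local background, values were computed with limma 3.58.1 in R 4.3.3: normexp (offset 50, all spots in the fit), removal of control spots and of non-uniform or outlier spots (158 and 117), quantile normalization, log2, and the mean of spots per probe. The offset compresses differences of dim probes. Detection of a probe required the well-above-background mark on 0.5 or more of its spots. A gene took its brightest probe among those detected on at least 1 array, and counts used an absolute difference of 1 and a mean log2 of at least 7.5. With 1 array per group no test was made, and the number of arrays limits the precision. The yardstick was the SD of replicate spots, taken from the 50 replicated probes nearest in signal.

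The 10 genes and the related lists were chosen with earlier results of these data known. All members and all their probes were named, and of each related list the genes past 1, or the 2 of largest difference where fewer passed, except 1 gene that is not reported here. Of the 23 probes, 20 matched a RefSeq accession of GRCm38.p6, all 20 to the same symbol. The steps were tested on simulated data with known changes. The alternatives were 16 settings of background correction, scaling, detection, probe choice and thresholds.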

Additional observations from a re-analysis of the deposited data

How the results depend on the processing

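Over 14 alternative ways of obtaining the gene values, Dnmt3b was lower in ELA-EpiSC in 14 (-1.22 to -0.30), and Dnmt3a (0.48 to 1.03), Dnmt3l (0.45 to 1.00), Uhrf2 (0.36 to 1.04), Tet3 (0.14 to 0.74) and Dnmt1 (0.00 to 0.59) were higher in 14. The quantile normalized difference of Dnmt1, 0.06, was below its spot SD of 0.10. All 23 probes were detected on both arrays, so the alternatives that changed only the detection rule could not alter these values. For the 3 genes with a single probe, the mean of all detected probes could not either. With the spike-in probes set equal, Tet1 turned to 0.17, Tet2 to 0.39 and Tdg to 0.43, and the median of the 10 genes moved from 0.07 to 0.60. Centring on array medians turned Tet2 to 0.055 and moved that median to 0.25. It was -0.038 with the processed signal centred on the 75th percentile and -0.033 with the mean of all detected probes. Uhrf1 was below 0 in 3 of the 14 (-0.14 to 0.62). The median of the DNA replication genes turned to -0.10 with the processed signal and -0.027 with normexp values, both centred on the 75th percentile. Relative to quantile normalization, the median of all genes moved by 0.54 with the spike-in probes, by 0.15 with median centring and by -0.07 with the 75th percentile. Members past 1 numbered 0, but 1 under both settings centred on the 75th percentile (Dnmt3b), 3 with the spike-in probes (Dnmt3a, Dnmt3l and Uhrf2) and 1 at a threshold of 1.5-fold (Dnmt3b). Of all genes, 756 were past 1 upward and 742 downward, 2603 and 321 with the spike-in probes, 1846 and 1823 at 1.5-fold, and 527 and 481 with a mean log2 of at least 9. The cause of these moves was not tested beyond the added constant. No paired analysis was possible because 1 array per group leaves no pairs. Arrays give no counts, so the dim probes (4 of 23 below a mean log2 of 7.5) limit what can be read for Uhrf1 probe 1, Tet2 probe 1 and Tet3 probes 1 and 3.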
